A study of Mus with 15 samples.

Results

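The genes described here are 35 macrophage genes, MHC class II genes left out, measured in CD4 single-positive thymocytes that had been sorted by flow cytometry as T cells. They were chosen by symbol as genes typical of macrophages, resident-type markers included, with earlier results of these data known. All 35 were found in the deposited table of 55573 genes, and 34 had enough counts to be among the 16069 genes tested. Vsig4 was the exception. The question was how far RNA of thymic macrophages is carried by the libraries of the Bst2+ gate. In short, the 35 genes together made up between 0.346% and 0.717% of all counts in the 3 Bst2+ libraries and 0.0174% to 0.0246% in the other 12. Apoe gave the most counts, and Vcam1 and Mrc1 had the largest ratios to the 9 libraries of the other gates sorted on CD25 or Foxp3. Both ratios rest on very few counts in those 9 libraries, so their rank is uncertain. Both genes had enough counts to be tested only through the Bst2+ libraries.

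Macrophages of the thymus take up the many thymocytes that die during selection. They recognise dead cells through receptors such as those encoded by Mertk, Axl and Timd4, coat them with complement C1q, break them down in lysosomes and export lipid and iron. Their identity depends on the transcription factor PU.1, encoded by Spi1, and on the growth factor receptor encoded by Csf1r. Lysosomal cathepsins are made by T cells too, whereas C1q, the product of Csf1r and the mannose receptor encoded by Mrc1 are typical of macrophages and their relatives.

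The study isolated bulk RNA from thymocytes of 6-week-old female mice of the strain C57Bl/6 x Foxp3-GFP, a reporter in which GFP marks Foxp3 expression, after CD8-bearing cells had been removed magnetically. All 5 gates were live TCRb+CD4+CD8- cells negative for CD73, and each gave 3 libraries, numbered 40, 42 and 43. Conventional CD4SP cells lacked Bst2, CD25 and Foxp3. CD25+ Treg progenitors carried CD25 without Foxp3, FOXP3lo Treg progenitors carried low Foxp3 without CD25, and mature Tregs carried both, all 3 without Bst2. The Bst2+ gate held cells with Bst2 that were positive for CD25, Foxp3 or both. BST2 is a surface protein induced by interferon and also found on plasmacytoid dendritic cells, B-lineage cells and some macrophages. The labels do not say whether a replicate is 1 mouse or a pool. The p-values set differences between gates against the spread among replicate libraries, estimated over all 5 gates together, and not against a known spread between mice.

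Total counts ran from 10816064 to 23758157 per library. Cd3e lay between 363 and 460 CPM (counts scaled to the library total) in the Bst2+ libraries and between 398 and 579 in the other 12, and Cd4 between 488 and 752 against 521 to 922, so transcripts of the labelled T cells were present in all 15. The transcript of the gate's own marker, Bst2, was at 50.3, 18.4 and 15.7 CPM in Bst2+ replicates 40, 42 and 43 and between 11.3 and 18.3 in the other libraries, so replicate 43 did not stand above them. Foxp3 was at 9.10, 28.1 and 40.2 CPM in the same 3 libraries and at 272 to 648 in the 2 gates sorted for it. The Bst2+ libraries stood apart in how much they differed from each other: a chi-square per gene between replicates was 63.6 to 89.1 there and 7.63 to 14.6 within the other gates. Since the fit shared its estimate of spread over all 15 libraries, SE and adjusted p may overstate the precision of comparisons with the Bst2+ gate. Apart from the Bst2+ libraries, FOXP3lo replicate 42 held traces of macrophage genes that its own replicates lacked or held at lower levels, as given below.

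Summed over the 35 genes, the Bst2+ libraries held 6039, 3621 and 7058 CPM in replicates 40, 42 and 43. The sum was 219, 228 and 238 CPM in conventional cells and 192, 196 and 177 in mature Tregs. It was 184, 184 and 218 CPM in the CD25+ and 191, 188 and 187 in the FOXP3lo progenitors. The lowest Bst2+ library was thus 15.2 times the highest of the other 12, and the groups did not overlap. The mean of the Bst2+ gate was 5573 ± 1765 CPM (SD, n = 3). Mature Tregs had 188 ± 9.76, FOXP3lo progenitors 189 ± 2.17, CD25+ progenitors 195 ± 19.3 and conventional CD4SP cells 228 ± 9.37. In such bulk samples, fewer cells of a type and less RNA per cell cannot be told apart.

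Most of the sum outside the Bst2+ gate came from Ctsd, Ctsb and Cst3, lysosomal proteases and a protease inhibitor that many cell types make. Without these 3 genes the means were 4749 ± 1539 CPM in Bst2+, 20.3 ± 1.79 in mature Tregs, 28.8 ± 7.17 for FOXP3lo and 36.7 ± 1.32 for CD25+ progenitors, and 41.6 ± 3.37 in conventional cells (SD, n = 3 each). The lowest Bst2+ library was then 69.8 times the highest of the other 12. Of the 35 genes, 19 stayed at or below 1 CPM in every library without Bst2, whereas 33 were above 1 CPM in all 3 Bst2+ libraries and 27 above 10 CPM.

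**Figure D1:**
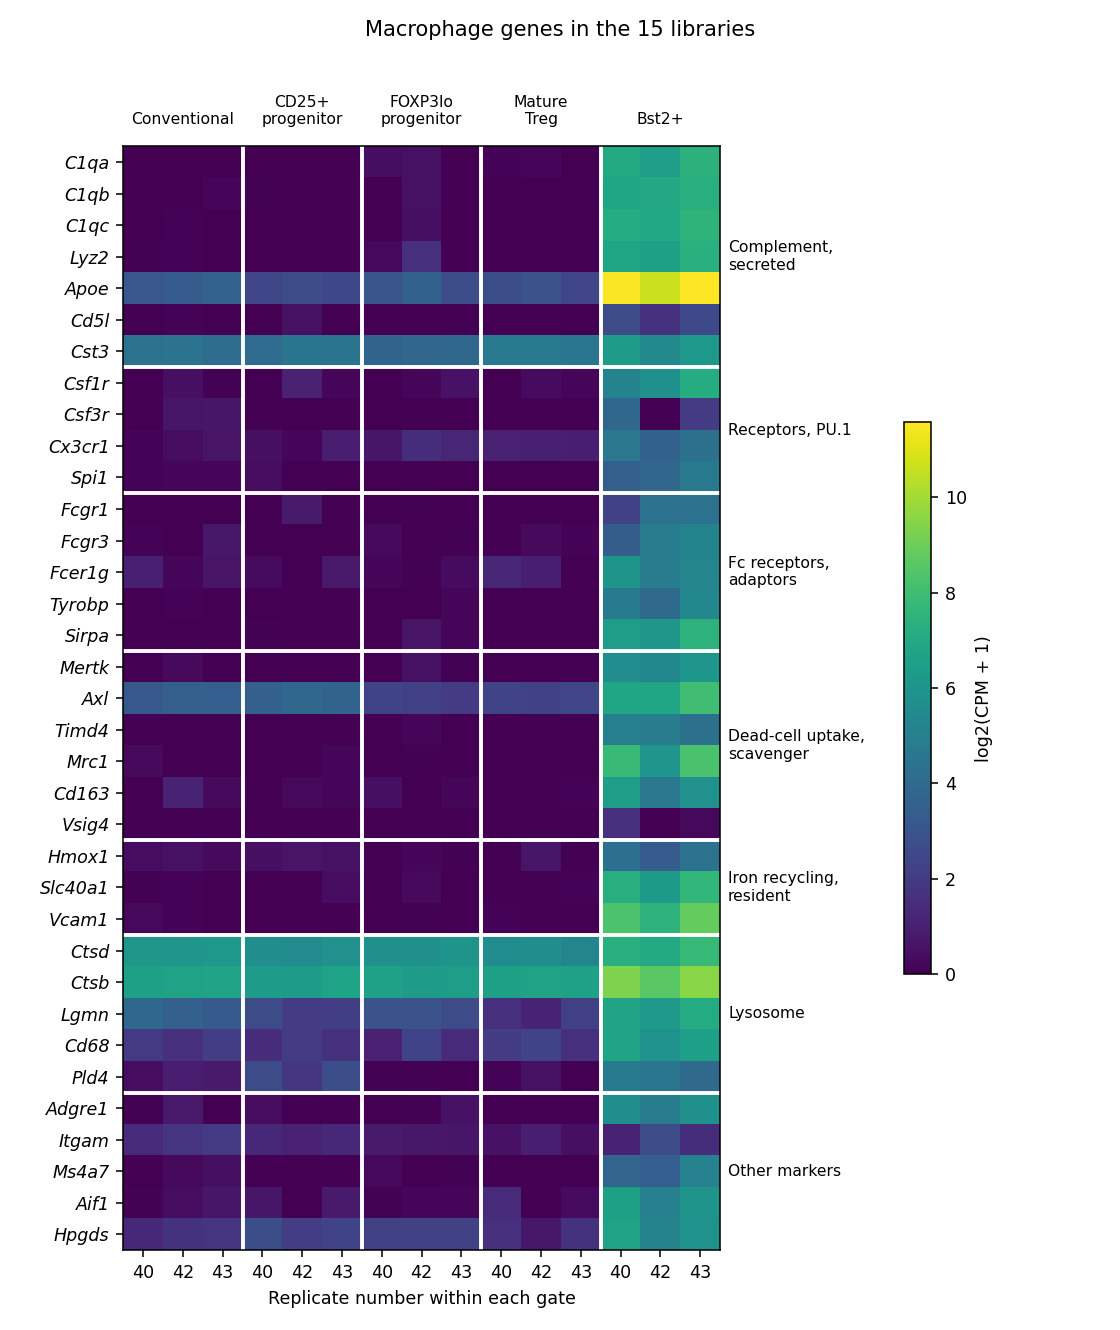
Level of each of the 35 macrophage genes (rows, grouped by role) in each of the 15 libraries (columns, by gate and replicate number), as log2(CPM + 1) in colour. The 3 Bst2+ columns are bright for nearly all rows, while the other 12 columns are dark except for Apoe, Cst3, Axl, Ctsd, Ctsb, Lgmn and a few fainter rows.

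Against the 9 libraries of the other gates sorted on CD25 or Foxp3, 34 of the 34 tested macrophage genes were called higher in the Bst2+ gate and 0 lower, at an adjusted p under 0.05 in edgeR's quasi-likelihood test. Over all 16069 genes tested, 19.3% were called higher and 19.8% lower. For 32 of the 35 genes each Bst2+ library lay above all 9, which held for 7.65% of all genes tested. Part of these counts was fixed by the filter on low counts: 21 of the 34 passed it only through the Bst2+ libraries and so had to be higher there, as 65.4% of all such genes were called. The other 13 pass without the Bst2+ libraries, so the filter did not fix their direction. They are Apoe, Cst3, Cx3cr1, Fcer1g, Axl, Ctsd, Ctsb, Lgmn, Cd68, Pld4, Itgam, Aif1 and Hpgds. They too were chosen with earlier results of these data known, so their count is a description and not independent support. All 13 were called higher, beside 17.5% of the 15468 genes of that kind, and for 12 of them the libraries did not overlap, beside 6.45%.

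Because many of these genes had no count in one or more of the compared gates, differences are given below as the ratio of pooled CPM, that is, the counts of the 3 Bst2+ libraries over those of the 9, each scaled to library totals. Where the 9 held no count the ratio is a lower bound set against 3 counts over the 9 libraries, and where they held 1 to 3 counts its 95% interval is given, which covers counting error only. The median ratio over the 35 genes was 304, or 8.25 on the log2 scale, beside a median fitted log2 difference of -0.03 over all genes tested. It exceeded 10 for 31 genes and 100 for 22, and ran from 3.07 for Itgam to 24521 for Vcam1. Adjusted p are printed below for the tested genes. For the 21 that passed the low-count filter only through the Bst2+ libraries, Vcam1, Mrc1 and the C1q genes among them, they are descriptions and not support.

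**Figure D2:**
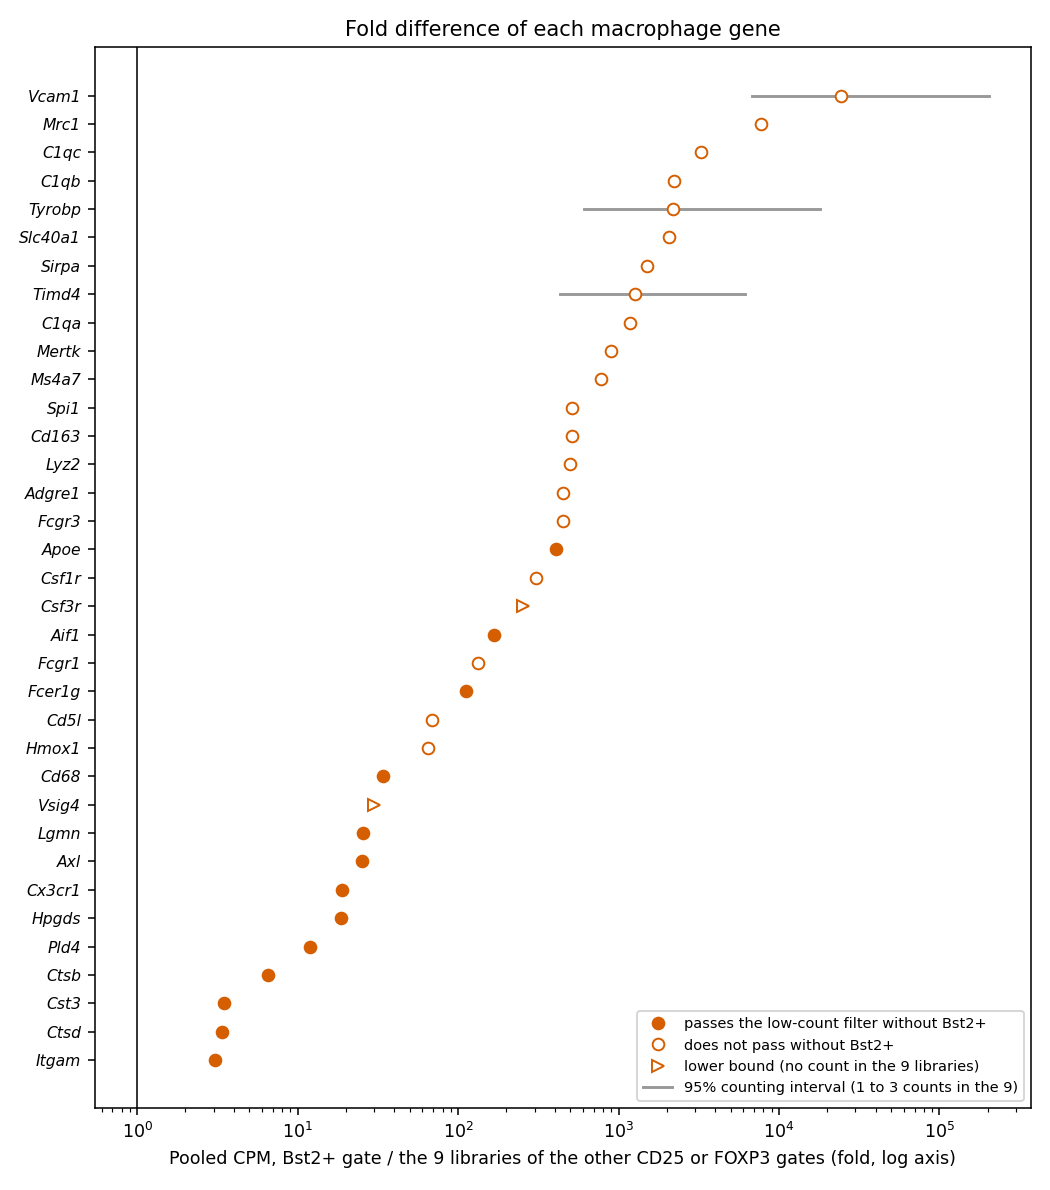
Ratio of pooled CPM in the Bst2+ gate over the 9 libraries of the other CD25 or FOXP3 gates for each macrophage gene (log axis, genes ordered by the ratio). Filled points pass the filter on low counts without the Bst2+ libraries, open points do not, triangles are lower bounds and grey lines are 95% counting intervals. All 35 points lie to the right of 1, from 3.07 (Itgam) to 24521 (Vcam1).

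The complement and secreted genes comprised the 3 chains of C1q, the lysozyme gene Lyz2, the lipid carrier gene Apoe, the scavenger protein gene Cd5l and Cst3. Apoe, which macrophages use to export cholesterol taken up with dead cells, was the most abundant of all 35 per length as well as by CPM, at 2880, 1576 and 3037 CPM in Bst2+ replicates 40, 42 and 43. It ranked 14 among the 16069 genes tested by mean CPM in that gate and 18 per length, and gave 47.7%, 43.5% and 43.0% of the macrophage counts in the 3 libraries. In the other 12 it lay between 4.34 and 11.4 CPM, so it was never absent there and never close to the Bst2+ level. The pooled ratio was 409, with a fitted log2 difference of 8.69 ± 0.19 and an adjusted p of 1.01e-14. Here and below, ± after a log2 difference is the SE derived from the test statistic of the shared fit, not from the Bst2+ libraries alone.

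C1qa, C1qb and C1qc, the genes for the chains that assemble into the recognition protein of the classical complement pathway, lie next to each other on chromosome 4, between positions 136880129 and 136898803 of GRCm38. C1qa was at 133, 86.4 and 171 CPM, C1qb at 115, 125 and 151, and C1qc at 142, 121 and 185 in Bst2+ replicates 40, 42 and 43. Per length (CPM divided by exon length in kilobases), the 3 levels were of one order, with means of 125, 120 and 77.4. Each chain was at 0 in at least 8 of the other 12 libraries, and the highest value among those, in FOXP3lo replicate 42 for all 3 genes, was 0.447, 0.447 and 0.391 CPM. The pooled ratios were 1183 for C1qa, 2218 for C1qb and 3286 for C1qc, with adjusted p of 1.17e-09, 1.65e-10 and 6.80e-10. All 3 passed the low-count filter only through the Bst2+ libraries, so these adjusted p are descriptions. That single FOXP3lo library gave 8 of the 17 C1qa counts, 8 of 9 for C1qb and all 7 for C1qc. Without it the ratios were 1968, 17582 and at least 6754.

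Lyz2, the lysozyme of myeloid cells, followed the same pattern at 115, 93.6 and 160 CPM in the Bst2+ libraries, and at 0 in 8 of the other 12. Its highest value outside the Bst2+ gate was 1.96 CPM, again in FOXP3lo replicate 42, where 35 counts were found. The pooled ratio was 501, and 5589 without that library. Reads of Lyz2 and its near-identical neighbour Lyz1 may have been split in counting, so its level is uncertain. Cd5l, which encodes a protein secreted by resident macrophages, was low at 5.463, 2.102 and 4.791 CPM. Its ratio of 69 rested on 9 counts, all in CD25+ progenitor replicate 42, and without that library it was at least 179. Cst3 differed far less, at 81.4, 46.1 and 71.1 CPM against 12.2 to 26.9 in the other 12, a fitted log2 difference of 1.83 ± 0.16 with an adjusted p of 1.84e-07.

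The receptor and regulator genes were Csf1r, Csf3r, Cx3cr1 and Spi1. Csf1r, the receptor for the macrophage growth factors CSF-1 and IL-34, was at 34.8, 55.8 and 141 CPM in the Bst2+ libraries and at most 1.11 in the others, where CD25+ progenitor replicate 42 was highest. The pooled ratio was 304 (adjusted p 4.71e-08), 554 without that CD25+ library and 165 without Bst2+ replicate 43. Spi1 was at 10.3, 13.1 and 24.8 CPM against at most 0.308, with 5 counts in the 9 libraries and a ratio of 515 (adjusted p 2.60e-06). Cx3cr1, a chemokine receptor that marks one population of thymic macrophages, was at 22.7, 11.1 and 18.3 CPM. It was also counted in each of the other 12 libraries, from 0.0809 CPM in conventional replicate 40 to 1.84 in FOXP3lo replicate 42. Its fitted log2 difference was 4.37 ± 0.50 (adjusted p 4.45e-06), and the Bst2+ libraries did not overlap with the rest.

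Csf3r, the receptor for the granulocyte growth factor G-CSF, went against its group. It was at 13.9 CPM in Bst2+ replicate 40, 0 in replicate 42 and 3.22 in replicate 43, and at 0 in all 9 libraries of the other CD25 or FOXP3 gates. Conventional replicates 42 and 43 held 0.596 and 0.638 CPM. Although called higher against the 9 (adjusted p 0.00100), with a ratio of at least 254, its Bst2+ libraries overlapped with them at 0. Without Bst2+ replicate 40 the lower bound was 90.5.

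All 5 Fc receptor and signalling adaptor genes were called higher, beside 19.3% of all genes tested. Only Fcer1g passed the low-count filter without the Bst2+ libraries, so the filter had fixed the direction of the other calls. Fcer1g and Tyrobp encode adaptors through which Fc and other activating receptors signal, and Sirpa encodes the inhibitory receptor that reads CD47 on other cells. Sirpa was at 89.1, 69.5 and 179 CPM in Bst2+ replicates 40, 42 and 43 and at 0 in 9 of the other 12 libraries. Fcer1g was at 63.2, 29.1 and 37.4 CPM against at most 1.33, and Tyrobp at 27.2, 14.8 and 41.7 against at most 0.110. No library of another gate reached the lowest Bst2+ library for any of the 3. The pooled ratio was 1499 for Sirpa (5281 without FOXP3lo replicate 42, 983 without Bst2+ replicate 43), 112 for Fcer1g and 2195 for Tyrobp, the last with an interval of 606 to 18146 since it rests on 2 counts, both in FOXP3lo replicate 43. Without that library it was at least 1286. Adjusted p were 4.24e-09, 3.93e-07 and 1.32e-07.

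The high-affinity IgG receptor gene Fcgr1 and the low-affinity activating receptor gene Fcgr3 had another order among the Bst2+ libraries. Fcgr1 was at 3.74, 19.2 and 19.2 CPM and Fcgr3 at 9.68, 29.1 and 36.6, so both were lowest in replicate 40. Both were called higher, with adjusted p of 5.21e-05 and 9.32e-07. The ratio for Fcgr1 was 133, but 16 of its 17 counts outside came from CD25+ progenitor replicate 42 and without that library it was 1961. For Fcgr3 it was 450, and 716 without FOXP3lo replicate 40.

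Among the genes for dead-cell uptake and scavenging, Mrc1, the mannose receptor, was at 229, 64.0 and 301 CPM in Bst2+ replicates 40, 42 and 43. It was at 0 in 9 of the other 12 libraries and at most 0.243 CPM, in conventional replicate 40. The ratio of 7737 (adjusted p 4.98e-10) rests on 4 counts, and without CD25+ progenitor replicate 43 on 1 count, with a value of 27061. Replicate 42 was thus several-fold below both other Bst2+ libraries, yet far above every library of the other gates.

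Mertk, a receptor tyrosine kinase that binds dead cells through the bridging proteins GAS6 and protein S, was at 48.0, 41.2 and 66.7 CPM against at most 0.447. Its ratio was 894 (adjusted p 8.98e-08), and 7087 without FOXP3lo replicate 42, which held 8 of the 9 counts. Its relative Axl behaved differently outside the Bst2+ gate. Axl was at 111, 112 and 260 CPM in the Bst2+ libraries, and between 3.18 and 13.4 in each of the other 12, highest in conventional cells and CD25+ progenitors. The fitted log2 difference was 4.84 ± 0.20 (adjusted p 5.40e-11), and the pooled ratio of 25.1 fell to 16.2 without Bst2+ replicate 43.

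Timd4 encodes a phosphatidylserine receptor that marks another population of thymic macrophages. It was at 30.7, 29.2 and 18.4 CPM in Bst2+ replicates 40, 42 and 43, one of the few of the 35 genes that was lowest in replicate 43. FOXP3lo replicate 42 was the only other library with a count, and it held 3. The ratio was 1260 (interval 430 to 6119; adjusted p 9.55e-07). Cd163, the receptor for haemoglobin bound to haptoglobin, was at 86.0, 24.1 and 57.6 CPM against at most 1.19, a ratio of 513 (adjusted p 3.86e-08) that was 806 without FOXP3lo replicate 40. Vsig4, a complement receptor of resident macrophages, barely registered. It had 20, 0 and 3 counts in the 3 Bst2+ libraries and none elsewhere, which gives a ratio of at least 29.8 and no test.

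The 3 genes of iron recycling and resident macrophages were Hmox1, which opens the haem ring to release iron, Slc40a1, the iron exporter ferroportin, and Vcam1, an adhesion molecule that marks macrophages of the spleen and bone marrow. Vcam1 was at 309, 179 and 452 CPM in Bst2+ replicates 40, 42 and 43. All 9 libraries of the other CD25 or FOXP3 gates together held 2 Vcam1 counts against 12613, a ratio of 24521 (interval 6787 to 202500; adjusted p 6.55e-12). With either library that held a count left out, it was 43204 (FOXP3lo replicate 42) or 45123 (mature Treg replicate 40). Conventional cells held 6 counts. Slc40a1 was at 158, 78.9 and 202 CPM against at most 0.318, a ratio of 2057 (adjusted p 4.64e-11) that was 3956 without CD25+ progenitor replicate 43. Hmox1 was at 17.8, 9.46 and 18.7 CPM against at most 0.554, a ratio of 64.8 (adjusted p 2.60e-06). All 3 were lowest in replicate 42 and highest in replicate 43, and none overlapped with the other gates.

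The ratios of the lysosomal genes ran from 3.40 to 34.0, and the other gates expressed most of them too. The cathepsin B gene Ctsb was at 637, 392 and 727 CPM in the Bst2+ libraries and between 80.1 and 107 in the other 12. The cathepsin D gene Ctsd was at 163, 135 and 217 CPM against 39 to 71.0. Neither pair of ranges overlapped. The fitted log2 differences against the 9 libraries were 2.68 ± 0.12 for Ctsb and 1.75 ± 0.11 for Ctsd, with adjusted p of 1.16e-10 and 8.09e-09. In the count annotation 34.4% of the exon bases of Ctsd are shared with another gene on the same strand, so its level is uncertain.

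Lgmn, an endopeptidase that activates cathepsins, was at 108, 72.7 and 138 CPM against 1.25 to 13.4 in the other 12 libraries, a log2 difference of 4.80 ± 0.24 (adjusted p 3.04e-10). Cd68, a heavily glycosylated lysosomal membrane protein, was at 109, 57.7 and 91.0 CPM against 1.09 to 3.97, a log2 difference of 5.09 ± 0.29 (adjusted p 1.49e-09). Pld4, an exonuclease of the endolysosome, was at 25.6, 22.6 and 15.1 CPM in the Bst2+ libraries. Outside them it reached 5.42, 2.57 and 5.82 CPM in CD25+ progenitors and stayed below 1 CPM in the conventional, FOXP3lo and mature Treg libraries. Its log2 difference was 5.99 ± 0.53 (adjusted p 2.67e-07), an average over the logs of the 3 gates, while the pooled ratio was 11.9 and, without CD25+ progenitor replicate 43, 18.1.

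Among the remaining markers, Adgre1, which encodes F4/80, was at 50.5, 28.7 and 54.5 CPM in the Bst2+ libraries against at most 0.745 in the other 12. Aif1, an actin-binding protein of macrophages also called IBA1, was at 93.5, 32.3 and 62.7 CPM against at most 1.67. Hpgds, the haematopoietic prostaglandin D synthase, was at 101, 34.9 and 58.5 CPM against 0.692 to 5.79. None of the 3 overlapped with the other gates. The ratios were 453 for Adgre1 (995 without FOXP3lo replicate 43), 167 for Aif1 and 18.6 for Hpgds, with adjusted p of 5.94e-07, 1.44e-07 and 7.99e-09. Ms4a7, a membrane protein of macrophages, was at 12.8, 9.95 and 34.4 CPM, a ratio of 781 on 4 counts (adjusted p 2.72e-06). It was 2762 without FOXP3lo replicate 40 and 424 without Bst2+ replicate 43.

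Itgam, the CD11b chain of complement receptor CR3, had the smallest ratio of the 35, 3.07. Its Bst2+ libraries were at 1.25, 5.42 and 1.83 CPM, and conventional cells at 1.66, 2.38 and 2.96, so these overlapped. CD25+ progenitors were at 1.48, 1.11 and 1.54 CPM and the other 2 gates below 1 CPM. The log2 difference against the 9 was 1.75 ± 0.57 with an adjusted p of 0.0233. Without Bst2+ replicate 42 the log2 difference was 0.86 with an adjusted p of 0.235. In the count annotation 68.7% of its exon bases are shared with another gene on the same strand, so its level is uncertain.

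Within the Bst2+ gate, the 35 genes largely kept one rank order from library to library while their common level moved. Across genes, the correlation of log2(CPM + 1) was 0.88 between replicates 40 and 42, 0.93 between 40 and 43 and 0.95 between 42 and 43, given as a description over 35 genes that differ widely in level and are not independent. Replicate 42 was the lowest of the 3 libraries for 26 of the 35 genes, and replicate 43 the highest for 22 and replicate 40 for 12. Among the 33 genes with a count in all 3, the highest library was 1.31 to 5.14 times the lowest, with a median of 2.17, and 26 of them stayed within 3-fold. Itgam was the gene that was highest in replicate 42. The genes that were lowest in replicate 40, such as Csf1r, Fcgr1, Fcgr3 and Spi1, therefore moved differently from Apoe, Mrc1 and Vcam1.

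**Figure D3:**
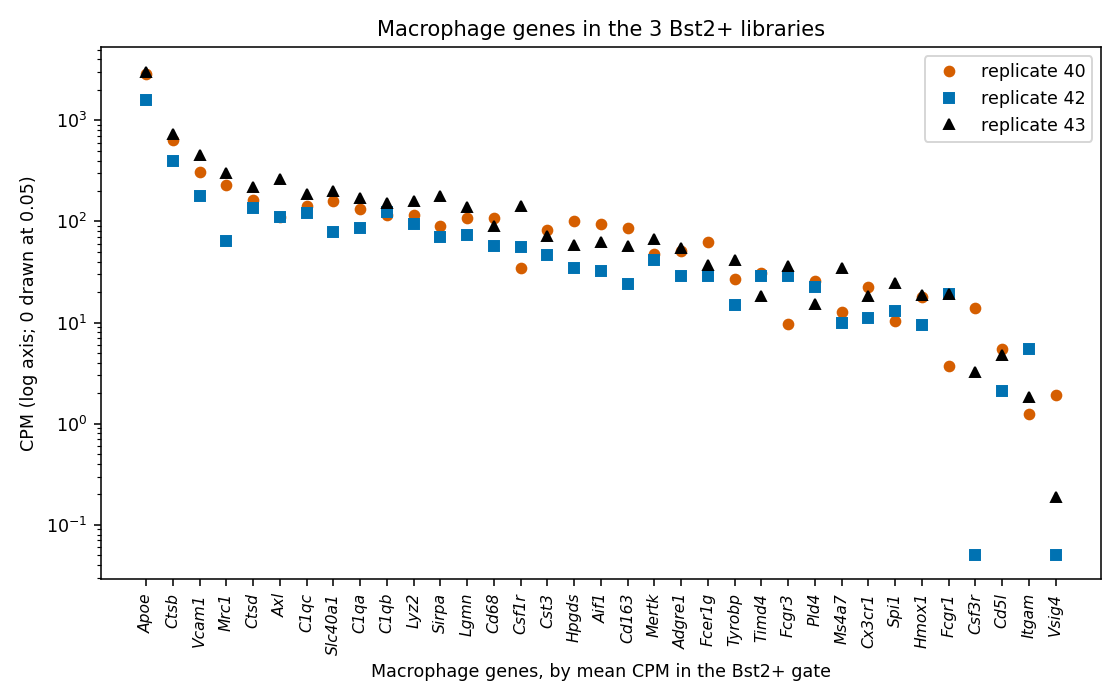
CPM of each macrophage gene (log axis) in Bst2+ replicates 40 (circles), 42 (squares) and 43 (triangles), ordered by the mean of the 3. Replicate 42 is lowest for 26 of the 35 genes, and Csf3r and Vsig4, drawn at 0.05, had no count in it.

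Against conventional CD4SP cells, 32 of the 34 tested macrophage genes were called higher in the Bst2+ gate and 0 lower, beside 13.5% and 15.6% of all genes tested. Of the 13 that pass the low-count filter without the Bst2+ libraries, 12 were called higher, beside 12.4% of the genes of that kind. The same Bst2+ libraries enter this comparison and the one above. The median pooled ratio was 158. Csf3r (adjusted p 0.154) and Itgam (adjusted p 0.821) did not pass. C1qa, Fcgr1, Sirpa and Timd4 had no count in conventional cells, with lower bounds of 2470, 278, 2209 and 464, and Cd5l had 1 count and an adjusted p of 0.0113 that no longer passed without conventional replicate 40 (0.0658) or 43 (0.0618).

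Outside the Bst2+ gate few of the macrophage genes differed from conventional cells, the shared control of the next 3 comparisons. In CD25+ progenitors 1 of 34 was called higher and 2 lower, beside 5.98% and 5.66% of all genes tested. In FOXP3lo progenitors 0 were called higher and 2 lower, beside 4.88% and 3.83%. In mature Tregs 0 were called higher and 3 lower, beside 6.45% and 5.73%. Most of the 34 had few or no counts in all of these gates and could hardly be called. The genes called, Pld4, Lgmn, Apoe, Axl and Ctsd, are all among the 13 that pass the low-count filter without the Bst2+ libraries, so that 3 of 13 were lower in mature Tregs, beside 5.92% of the genes of that kind. For FOXP3lo progenitors it was 2 of 13 lower, beside 3.97%, and for CD25+ progenitors 1 of 13 higher and 2 lower, beside 6.17% and 5.85%.

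Pld4 was the gene called higher in CD25+ progenitors, with the 3 values given above against 0.324, 0.819 and 0.811 CPM in conventional cells, a log2 difference of 2.83 ± 0.70 (adjusted p 0.0114). The call ended without conventional replicate 40 (adjusted p 0.0779) or CD25+ progenitor replicate 43 (0.0513). In FOXP3lo progenitors it was at 0.0576, 0.0559 and 0 CPM and was called lower, by a log2 difference of -3.84 ± 0.97 (adjusted p 0.0186). That call rested on 2 counts in the FOXP3lo libraries and ended when any of 5 of the 6 libraries was left out (adjusted p 0.0610 to 0.0962), the exception being conventional replicate 40, and it was not made by limma-voom (adjusted p 0.115). Pld4 is also made by B cells and plasmacytoid dendritic cells, whose summed lists are given below.

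Lgmn was at 13.4, 10.8 and 8.64 CPM in conventional replicates 40, 42 and 43, at 5.30, 3.08 and 3.39 in CD25+ progenitors and at 1.92, 1.25 and 3.56 in mature Tregs. Neither gate overlapped with conventional cells. The log2 differences were -1.49 ± 0.33 (adjusted p 0.00508) and -2.28 ± 0.35 (adjusted p 2.13e-04). FOXP3lo progenitors, at 6.86, 6.82 and 5.21 CPM, were also below the conventional libraries but were not called. By limma-voom the difference of CD25+ progenitors did not pass (adjusted p 0.0688).

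Axl was at 8.009, 10.50 and 10.03 CPM in conventional cells and at 10.8, 13.4 and 12.1 in CD25+ progenitors. It was lower in FOXP3lo progenitors, at 4.09, 3.52 and 3.18 CPM (log2 difference -1.40 ± 0.29, adjusted p 0.00429), and in mature Tregs, at 4.00, 3.81 and 4.27 (-1.23 ± 0.29, adjusted p 0.00796). The 6 libraries of the gates sorted for Foxp3 thus lay below the 6 without it. By limma-voom the log2 differences were -1.35 and -1.18 and neither passed (adjusted p 0.409 and 0.479). Apoe was called lower in CD25+ progenitors, at 4.56, 5.35 and 4.76 CPM against 7.77, 9.38 and 11.4 (-0.94 ± 0.27, adjusted p 0.0318), but not by limma-voom (0.811). The call ended without conventional replicate 42 or 43 or without any 1 of the CD25+ progenitor libraries, with adjusted p from 0.0718 to 0.148. Ctsd was called lower in mature Tregs, at 48.5, 49.2 and 39 CPM against 69.1, 64.2 and 71.0 (-0.58 ± 0.15, adjusted p 0.0173), and this ended without conventional replicate 40 or 43 or mature Treg replicate 43 (adjusted p 0.0581 to 0.0802).

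FOXP3lo replicate 42 was the library outside the Bst2+ gate with the clearest traces. It held the highest level among the 12 for 9 of the 35 genes, namely C1qa, C1qb, C1qc, Lyz2, Cx3cr1, Sirpa, Mertk, Timd4 and Cd68. Its counts were 35 for Lyz2, 9 for Sirpa, 8 for Mertk and 3 for Timd4. The other FOXP3lo libraries held 3 and 0 counts of Lyz2, 0 and 2 of Sirpa, 0 and 1 of Mertk and none of Timd4. By edgeR no macrophage gene was called higher in that gate against conventional cells, with all libraries or without this one. DESeq2 called C1qa (adjusted p 0.0397) and Cx3cr1 (0.0252), and edgeR with no filter on low counts called C1qa (4.38e-04), Lyz2 (2.05e-08) and Sirpa (0.00315). Without FOXP3lo replicate 43, which leaves replicate 42 as 1 of 2 in its gate, 2 were called higher.

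Other genes tied to macrophages, from lists that do not overlap the 35, were counted in the same way. These lists were also chosen with earlier results of these data known. Genes that pass the low-count filter only through the Bst2+ libraries had to be higher there, so each list is also counted over those that pass without them, beside 17.5% called higher and 20.6% lower among all genes of that kind. Of 16 tested regulators of macrophage identity 7 were called higher against the 9 libraries and 1 lower, and over the 11 that pass without the Bst2+ libraries 2 were higher and 1 lower. Spic, the transcription factor of iron-recycling macrophages, was at 20.8, 11.4 and 23.8 CPM in Bst2+ replicates 40, 42 and 43 and had no count in the 9, a ratio of at least 953, given as a description since it passed the filter only through the Bst2+ libraries. Zeb2, a repressor active in myeloid cells, was at 102, 56.6 and 123 CPM against at most 16.7 (adjusted p 1.59e-09), and its highest levels elsewhere were in CD25+ progenitors. Both were lowest in replicate 42, as most of the 35 genes were.

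Of 22 tested genes of dead-cell uptake, 14 were higher and 2 lower, and of the 11 that pass without the Bst2+ libraries 3 were higher and 2 lower. Those with the smallest adjusted p were Lrp1, a large endocytic receptor, at 174, 80.4 and 265 CPM, the inhibitory collagen receptor gene Lair1 at 48.7, 8.65 and 29.4, and the lectin gene Clec4n at 43.5, 30.7 and 36.0. Clec4n passed only through the Bst2+ libraries. Tyro3 (ratio 0.276) and Mfge8 (ratio 0.687) went the other way, and Gas6 was at 0, 0 and 5.169 CPM. The list's sum was 1048, 982 and 1446 CPM in Bst2+ replicates 40, 42 and 43 against 865 to 1116 in the other 12. Replicates 40 and 42 thus lay within that range. Much of the sum came from Itgb2, at 397, 489 and 512 CPM, and Abca1, at 165, 162 and 278. Of 22 lysosomal genes 17 were higher and 1 lower, and 14 and 1 over the 19 that pass without them, Ctsc (ratio 3.59) and Grn (ratio 13.3) being among those with the smallest adjusted p. All 11 tested iron and haem genes were called higher, 8 of them passing without the Bst2+ libraries, such as the ferritin chain gene Fth1 (ratio 2.57). For 9 of the 11 each Bst2+ library lay above all 9 libraries. Tfrc (ratio 1.19) was at 84.7, 147 and 102 CPM against 42.9 to 175 in the other 12, and Slc48a1 at 14.6, 17.95 and 25.9 against 9.24 to 16.2. The phagosomal metal transporter gene Slc11a1 was at 22.1, 7.04 and 31.4 CPM, with 2 counts in the 9 libraries. It passed only through the Bst2+ gate. Hpx and Hamp were at 0 in the Bst2+ libraries and at most 0.0576 and 0.346 CPM elsewhere. Lrp1 belongs to the uptake and the iron list, and Lair1 also to the plasmacytoid dendritic cell list below, so the counts of genes called in these lists are not independent.

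Markers of other cells that could enter the gate were read the same way, as summed CPM over each list and by the genes with the smallest adjusted p. In the B cell list, 8 of its 9 tested genes were called higher and 0 lower, and 4 of the 5 that pass without the Bst2+ libraries were higher. Its sum over 17 genes was 103, 820 and 2248 CPM in Bst2+ replicates 40, 42 and 43 against 22.5 to 55.2 in the other 12. Ighm, the immunoglobulin mu heavy chain gene, was at 60.6, 393 and 774 CPM against 17.9 to 51.3. Jchain, which joins secreted IgM or IgA units, was at 0, 73.2 and 231 CPM against at most 1.17, and the B cell adaptor gene Blnk at 4.12, 18.8 and 14.6 against at most 1.16. Igkc, the kappa light chain gene, chosen after its values were seen, was at 0, 265 and 1150 CPM. Ighd was at 0 in all 3 Bst2+ libraries and at most 0.749 CPM elsewhere. Ighm, Jchain, Blnk and Igkc were all lowest in replicate 40, whereas the macrophage sum was lowest in replicate 42. B cells share with macrophages some of the 35 genes, Spi1 among them, and the part of B cell RNA in those was not tested.

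For monocytes, the closest relatives of macrophages, 3 of 10 tested genes were called higher and 4 lower, and 2 and 4 over the 9 that pass without the Bst2+ libraries. Plac8 was at 20.03, 64.5 and 13.4 CPM in Bst2+ replicates 40, 42 and 43 against at most 4.02 in the other 12. Treml4, a receptor of nonclassical monocytes and some macrophages, was at 24.5, 8.25 and 13.1 CPM against at most 0.167. The coagulation factor gene F13a1 was at 53.3, 15.5 and 27.9 CPM, within the 0.842 to 52.6 of the others but for replicate 40. Both Plac8 and Treml4 lay above all libraries of the other gates. The list's sum was 408 to 605 CPM against 702 to 1150 elsewhere, but most of it came from Itgal and Nr4a1. Itgal, which T cells make as well, was at 216, 345 and 388 CPM in Bst2+ replicates 40, 42 and 43 against 489 to 660. Nr4a1 was at 79.4, 123 and 148 CPM against 143 to 458. The lower sum therefore does not describe the rest of the list. Ly6c1 and Vcan were at 0 in the Bst2+ libraries and at most 2.49 and 2.48 CPM elsewhere, and Chil3 had no count in any of the 15. Of the granulocyte genes, 1 of 15 was tested and not called, 9 had no count in the Bst2+ gate, S100a8 and Cxcr2 included, and the sum of 3.593 to 6.996 CPM compares with 0.110 to 5.85 elsewhere.

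Conventional dendritic cell genes summed to 420 to 536 CPM against 361 to 556, with 5 of 10 called higher and 2 lower, and 4 and 2 over the 9 that pass without the Bst2+ libraries. Cadm1, an adhesion molecule of the cross-presenting dendritic cells, was at 38.5, 24.4 and 67.2 CPM in Bst2+ replicates 40, 42 and 43 against at most 0.333. Wdfy4, needed for cross-presentation, was at 75.2, 32.3 and 50.1 CPM against at most 8.75. Neither overlapped with the other gates, whereas the chemokine receptor gene Ccr7 was lower, at 159, 119 and 150 CPM against 173 to 298. Other genes of this list were low or overlapped. Xcr1 was at 0, 0 and 1.261 CPM in Bst2+ replicates 40, 42 and 43, and Batf3 at 0, 0.243 and 0. Clec9a was at 0.479, 0.162 and 0 CPM, each below mature Treg replicate 40. Zbtb46 was at 5.175, 0 and 0.946 CPM against 0.121 to 2.913 in the other 12. Cd209a was at 0 in the Bst2+ libraries, and Ccl17 had no count in any of the 15. Plasmacytoid dendritic cell genes summed to 421 to 495 CPM against 436 to 526, with 4 of 12 higher and 3 lower, all 12 passing without the Bst2+ libraries. The transcription factor gene Tcf4 was at 58.4, 83.0 and 56.6 CPM against 12.96 to 33.3, and Lair1 is given above. Siglech, of the same list, was at 0, 0 and 1.45 CPM in Bst2+ replicates 40, 42 and 43 and at most 0.0548 elsewhere. Pacsin1 was lower, at 72.7, 94.0 and 109 CPM against 154 to 183. Klk1 and Cd300c had no count in any of the 15 libraries, and Cox6a2 and Upb1 none in the Bst2+ gate and at most 0.151 and 0.583 CPM elsewhere. Many genes of these lists, such as Itgal and Ccr7, are made by T cells as well.

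Genes of thymic epithelium and stroma summed to 274 to 311 CPM against 219 to 440, with 3 of 8 higher and 3 lower, and 2 and 3 over the 6 that pass without the Bst2+ libraries. Pdgfrb, a receptor of pericytes and other mesenchymal cells, was at 10.2, 7.68 and 8.83 CPM in Bst2+ replicates 40, 42 and 43 against at most 1.29. The epithelial adhesion gene Epcam was at 40.7, 21.2 and 5.36 CPM against 2.14 to 12.1, and the endothelial cadherin gene Cdh5 at 8.53, 0.809 and 2.96 against at most 2.03. Pdgfrb did not overlap with the other gates, while Epcam overlapped in replicate 43 and Cdh5 in replicate 42. Krt14, Foxn1, Psmb11, Pdgfra and Dcn were at 0 in the Bst2+ libraries and below 1 CPM elsewhere, and Krt5 and Ccl21a had no count in any of the 15.

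Erythroid genes summed to 91.5 to 166 CPM against 54.8 to 180 (2 of 3 tested higher, 1 lower). Slc4a1 and Hba-a1 were at 0 in the Bst2+ libraries, and Hbb-bs, Hba-a2 and Klf1 had no count in any of the 15. Mast cell, basophil and eosinophil genes summed to 19.4 to 55.6 CPM against 4.02 to 106 (2 of 3 higher, 1 lower), 8 of the 12 being at 0. The mast cell protease gene Cpa3 was at 0, 14.8 and 2.08 CPM against at most 0.909, and Ccr3 at 12.3, 5.42 and 2.27 against at most 0.353. T cell core genes summed to 6544 to 7749 CPM against 6350 to 9983 (4 of 18 higher, 8 lower). Of these 9 lists, the B cell list was the one whose sum lay above the other 12 in all 3 Bst2+ libraries, and the granulocyte sum lay above them in replicates 40 and 42. A sum follows its most abundant genes, such as Itgal and Nr4a1 for monocytes or Kit, at 43.3, 24.3 and 15.1 CPM, for mast cells. Single genes of other lists also lay above the other 12 in all 3, Treml4, Cadm1, Pdgfrb and Ccr3 among them. The part of any of these cell types in the levels of the 35 genes was not tested.

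**Figure D4:**
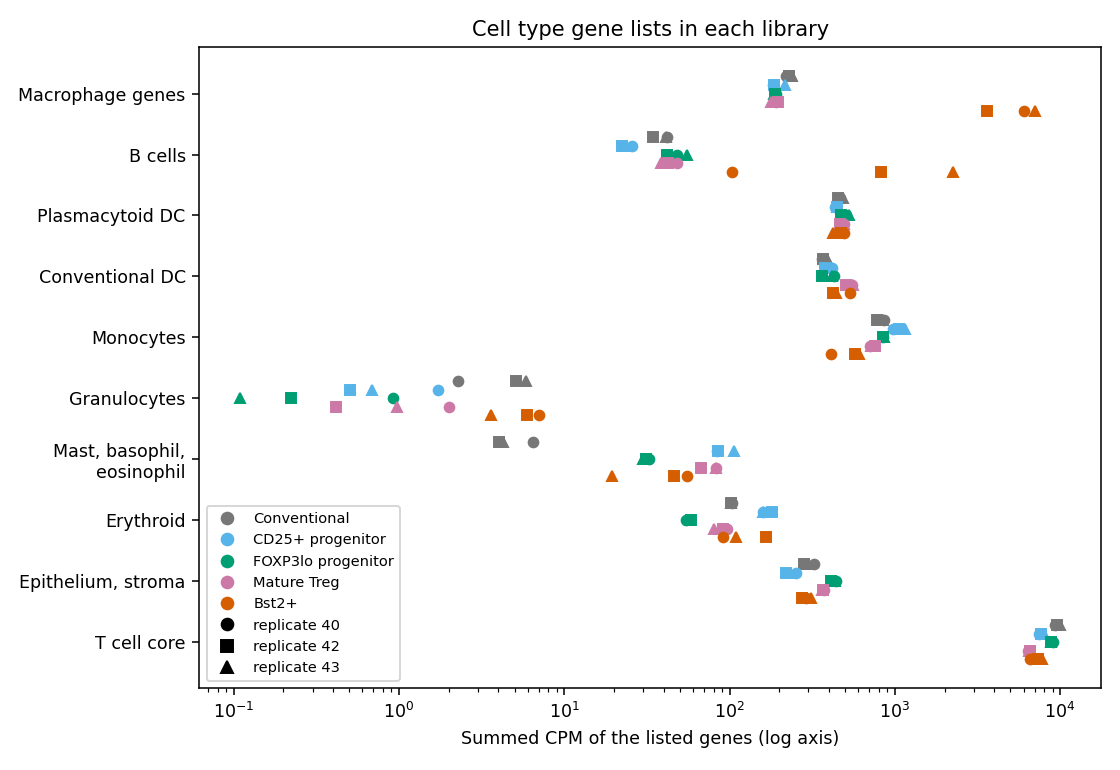
Summed CPM (log axis) of the macrophage genes and of 9 lists of other cell types in each of the 15 libraries, coloured by gate with a symbol for each replicate number. The macrophage genes (3621 to 7058) and B cell genes (103 to 2248) of the Bst2+ libraries lie to the right of all other libraries, and the sums of the T cell core lie between 6350 and 9983 in all 15.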

How the data were processed

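Values are the counts per gene that the authors deposited, read pairs of stranded total RNA libraries (SMARTer Pico Input kit, per the labels) counted by strand where both mates aligned with a quality of 10 or more, per the file header. Per the submitters' processing notes they used Trimmomatic 0.33, HISAT2 2.1.0, GRCm38 and featureCounts 1.4.6; the file header gives featureCounts 1.6.2. The file has no symbols, so genes were named by position from RefSeq GRCm38.p6. All 35 members and 231 of 234 entries in 13 other lists matched. The members and lists were chosen with earlier results of these data known. Counts were filtered (filterByExpr), scaled by TMM and fitted over all 15 libraries with edgeR 4.0.16 (quasi-likelihood, robust, Benjamini-Hochberg over all genes tested, called at adjusted p under 0.05, R 4.3.3). The test was checked on simulated data with the same spread in every gate, narrower than in these libraries. That check does not cover the wider spread of the Bst2+ gate. All members are reported. Of other lists, up to 3 called genes with the smallest adjusted p in the first comparison were named, and many of the genes with no count in the Bst2+ gate. Further genes of those lists were named after their values were seen, Igkc, Xcr1, Batf3, Clec9a, Zbtb46, Tyro3, Mfge8, Gas6, Tfrc and Siglech among them. Alternatives were limma-voom 3.58.1, DESeq2 1.42.0, other scalings, filters, and leaving out libraries. Sequences are not used here, and some genes of the other lists are not reported here.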

Additional observations from a re-analysis of the deposited data

How the results depend on the processing

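The counts of macrophage genes called higher in the Bst2+ gate, 34 against the 3 other CD25 or FOXP3 gates and 32 against conventional cells, stayed within 1.5 times under all alternatives run. Leaving out 1 library gave 33 to 34 and 31 to 33, with 0 to 0 called lower in both. Of the values for single genes under an alternative, 708 kept their call and direction and 4 (all Itgam) lost the call in the first comparison, and 478 and 2 (both Cd5l) in the second. The small counts in the other gates moved more. For CD25+ progenitors, 1 higher and 2 lower became 4 and 5 with no filter on low counts, 2 higher fitted on only the groups compared or without the Bst2+ libraries (added after seeing the data), 0 lower by limma-voom and 4 lower by DESeq2. The labels do not tie a replicate number to a mouse or a day, so libraries share only a number: deviations from the gate means correlated by -0.0263 to 0.0731 between same-numbered and by -0.072 to 0.0446 between other libraries, and 12 of 15 libraries were on average closest to those of their own number, a hint from the data and not the design. With the replicate block 33 were higher in the first comparison and 1 lower in CD25+ progenitors, since Itgam (adjusted p 0.0605) and Apoe (0.0523) were not called, and no other call ended. For FOXP3lo progenitors, 0 higher and 2 lower became 3 higher with no filter, 2 higher by DESeq2, 0 lower by limma-voom, and 1 higher and 5 lower with only the groups compared. For mature Tregs, 0 higher and 3 lower became 6 lower with no filter, and 1 higher and 5 lower with only the groups compared or without the Bst2+ libraries. By limma-voom, Lgmn and Apoe in CD25+ progenitors (adjusted p 0.0688 and 0.811), Axl and Pld4 in FOXP3lo progenitors (0.409 and 0.115) and Axl in mature Tregs (0.479) were not called. Leaving out 1 library gave 0 to 0 higher and 2 to 5 lower in mature Tregs, 0 to 2 and 1 to 2 for FOXP3lo and 0 to 1 and 1 to 2 for CD25+ progenitors. The cause of these shifts was not tested. The mean summed CPM of the 35 genes was 3075 without Apoe in Bst2+, 219 in conventional cells and 181 in FOXP3lo progenitors. Without Ctsd, Ctsb and Cst3 it was 20.3 in mature Tregs, 28.8 for FOXP3lo and 36.7 for CD25+ progenitors, 41.6 in conventional cells, and with raw library sizes 182 in FOXP3lo progenitors. Without 1 library it lay between 4830 and 6548 in Bst2+, 185 and 194 in mature Tregs, 187.4 and 189.6 for FOXP3lo and 184 and 201 for CD25+ progenitors, and 223 and 233 in conventional cells. Depth limits most of the ratios, whose denominators are often under 20 counts.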
